A study of Mus musculus with 39 samples.

Results

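Interferon gamma (Ifng) and the 7 genes of its receptor pathway measured here (Ifngr1, Ifngr2, Jak1, Jak2, Irf1, Irf8 and Socs1) were followed in mouse oocytes, fertilized and cloned 2-cell embryos and cumulus cells. The genes were chosen by name through the RefSeq mouse annotation. The series' own measurements had drawn attention to Ifng, so its levels are described without a test, except between 2 doses of injected mRNA. The 8 genes had 14 probes, among 41174 probes and 18905 named genes on the array. Ifng, Ifngr2, Jak1, Jak2, Irf1 and Irf8 had 2 probes each, and Ifngr1 and Socs1 had 1 each.

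The samples were 39 one-colour Agilent arrays. Unfertilized metaphase II oocytes (OC, n = 7) and in vitro fertilized 2-cell embryos (IVF, n = 6) were compared with 2-cell embryos cloned by somatic cell nuclear transfer (SCNT), in which a cumulus cell nucleus was placed in an enucleated oocyte. The clones were untreated (TSA(-), n = 8) or treated with 5 nM trichostatin A, a histone deacetylase inhibitor, for 8 h from activation (TSA(+), n = 6). Others were injected with mRNA for the ETS family transcription factor Spi-C (Spi-C NT) at 1.0 mg/ml (n = 4) or 0.1 mg/ml (n = 4). The nuclear donors, cumulus cells (Cumulus, n = 4), completed the set. Recipient oocytes and donor cells came from (C57BL/6 × DBA/2) F1 females of 8 to 10 weeks, embryos were cultured for 24 h, and each array held the RNA of 10 pooled oocytes or embryos or of 500 cumulus cells after 2 rounds of linear amplification. Each array averages its pool, so fewer embryos or cells with a transcript and less transcript in each cannot be told apart. The labels number the samples of a group, and nothing says that they came from separate animals, so p-values measure the spread between these pools only. Cumulus and Spi-C NT arrays were scanned on other slides and days, with another scanner and a later software version, than the remaining groups. For any comparison of these groups with the others, the group and the array batch cannot be told apart.

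Interferon gamma is a cytokine that activated T cells and natural killer cells are best known for secreting. It binds a receptor made of a ligand-binding chain (Ifngr1) and a signalling chain (Ifngr2), which are attached to the kinases Jak1 and Jak2. The kinases pass the signal to the nucleus, where GAS elements in target promoters are bound and transcription factors such as Irf1 and Irf8 are turned on, while Socs1 blocks the kinases and ends the signal. In fertilized mouse embryos, transcription of the new genome starts in earnest at the 2-cell stage, when many genes are switched on for the first time.

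Levels below are log2 signals relative to the 75th percentile of all probes on the same array, so a level of 0 is the signal of that percentile. A probe was well above background where the scanner's own flag said so. Between 48.7% and 60.01% of probes were well above background on the OC arrays, 69.6% to 76.3% on the IVF arrays and 58.3% to 65.8% on the Cumulus arrays. The tests were limma fits on 39517 probes with a threshold of 0.01 on the adjusted p.

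The promoters of 3 genes are shown because they hold matches to the elements through which interferon signals reach DNA, and because Ifng, Irf1 and Socs1 stand for the ligand, a target and the inhibitor. Each is the 250 bases before the annotated start site, for Irf1 the first such site. The sequences (RefSeq, GRCm38.p6) are written 5′ to 3′ on the strand of the gene, and capitals mark exact matches to the searched motifs. The searched motifs were the GAS element TTCNNNGAA, the core of the interferon-stimulated response element (GAAA, any 2 bases, GAAA), the ETS site GGAAGT and the TATA box TATAAA, on both strands.
Ifng, chr10:118440796-118441045, plus strand: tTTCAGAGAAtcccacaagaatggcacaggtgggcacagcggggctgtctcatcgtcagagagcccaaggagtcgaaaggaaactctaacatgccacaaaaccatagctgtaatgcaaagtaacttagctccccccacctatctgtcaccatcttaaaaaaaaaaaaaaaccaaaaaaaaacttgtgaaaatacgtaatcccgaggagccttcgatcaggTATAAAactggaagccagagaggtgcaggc
Irf1, chr11:53769764-53770013, plus strand: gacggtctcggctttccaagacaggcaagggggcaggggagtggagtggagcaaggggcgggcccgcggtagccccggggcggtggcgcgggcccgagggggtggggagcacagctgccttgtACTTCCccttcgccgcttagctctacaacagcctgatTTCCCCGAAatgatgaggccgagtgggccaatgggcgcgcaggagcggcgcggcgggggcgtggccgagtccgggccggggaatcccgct
Socs1, chr16:10785537-10785786, minus strand: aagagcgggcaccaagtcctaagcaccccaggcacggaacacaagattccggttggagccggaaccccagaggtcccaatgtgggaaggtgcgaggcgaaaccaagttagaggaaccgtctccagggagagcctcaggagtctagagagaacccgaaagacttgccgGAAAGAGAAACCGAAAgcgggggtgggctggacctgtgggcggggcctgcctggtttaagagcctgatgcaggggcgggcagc

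In the Ifng promoter, the GAS match TTCAGAGAA began at position -249 and the TATA box at -30, counted from the start site. The Irf1 promoter, that of its first start site, held the GAS match TTCCCCGAA at -90 and an ETS match on the opposite strand at -127. The window of a later annotated Irf1 start site held an ETS match on the strand of the gene at -129 and no GAS match. The Socs1 promoter held 2 overlapping matches to the interferon-stimulated response element core, GAAAGAGAAA at -83 and GAAACCGAAA at -77. Irf8, on chromosome 8, had 2 GAS matches at -171 and -153 and a TATA box at -31 in the window of its first start site. Neither receptor gene (Ifngr1 on chromosome 10, Ifngr2 on chromosome 16) nor either kinase gene (Jak1 on chromosome 4, Jak2 on chromosome 19) matched any of the 4 motifs in windows of 300 bases, 250 before to 50 after the start. Over the 32851 annotated promoters of that length, 8.3% held a GAS match, 3.44% the response element core, 23.8% the ETS site and 13.6% the TATA box. A match is a run of letters and was not tested as a binding site.

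Ifng transcript was near or below background in oocytes and in donor cumulus cells and bright in every array of 2-cell embryos. With probe A_51_P220976, the 7 OC arrays had a lowest level of -7.00, a median of -6.69 and a highest of -3.91, and 3 of the 7 were well above background. The 6 IVF arrays ran from 3.18 through a median of 3.58 to 4.13. Cumulus arrays 1 to 4 read -8.53, -8.71, -8.26 and -8.37, and 2 of the 4 were well above background. In raw processed signal, the median intensity was 4.0 units in OC, 12296 units in IVF and 2.6 units in Cumulus. The groups did not overlap, and the mean level in IVF was 9.62 above that in OC, or 6.06 above it after the normexp correction. The other probe, A_52_P68893, had a mean of -6.09 ± 1.93 (SD, n = 7) in OC and 4.6 ± 0.34 (SD, n = 6) in IVF. The difference was 10.69, or 7.06 after the normexp correction, and the probe was well above background on 2 of 7 OC arrays and on 0 of 4 Cumulus arrays. Since most OC arrays were not well above background, the sizes of these differences depend on the background treatment. Against Cumulus, where this probe has only a bound, IVF embryos were at least 7550-fold higher, taking for each dim array the higher of the probe's own signal and the lowest signal among probes well above background. This bound holds for the 75th percentile scale only, since the Cumulus difference from IVF, -12.88 on that scale, was -11.99 after median centring and -8.42 after normexp. The OC group was not uniform, since OC replicates 5 and 6 read -4.41 and -3.91 with the first probe and -3.69 and -2.93 with the second, while the other 5 lay at -6.45 or below with both.

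**Figure D1:**
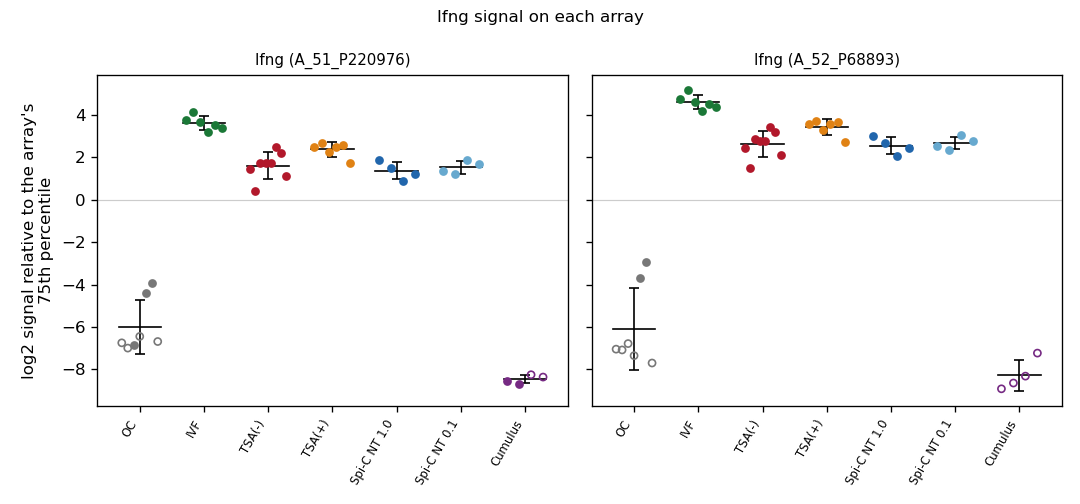
Ifng signal on each of 39 arrays for its 2 probes (vertical axis, log2 signal relative to the array's 75th percentile; groups on the horizontal axis). Filled points were well above background and open points were not; black lines are group means and SD. With probe A_51_P220976 all 6 IVF arrays lie at 3.18 or above, all 22 cloned embryo arrays between 0.42 and 2.67, and the OC and Cumulus arrays at -3.91 or below.

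All 22 arrays of cloned embryos also had Ifng signal well above background, at a lower level than any IVF array. With probe A_51_P220976, the 8 TSA(-) arrays had a lowest level of 0.42, a median of 1.73 and a highest of 2.49. The 6 TSA(+) arrays ran from 1.74 through a median of 2.5 to 2.67. The Spi-C NT 1.0 arrays read 1.86, 1.5, 0.89 and 1.23, and the Spi-C NT 0.1 arrays read 1.35, 1.2, 1.89 and 1.69. No cloned array reached the lowest IVF array, and the mean in TSA(-) was 2.00 below that in IVF, or 3.99-fold, while TSA(+) was 1.23 below (2.34-fold) and the pooled Spi-C NT arrays 2.16 below (4.46-fold). These 3 differences share the IVF arrays. Probe A_52_P68893 gave differences of -1.96, -1.18 and -2.0 from IVF in the same order. On each of the 3 slides that held both groups, TSA(-) was below IVF, by between 0.69 and 3.36 with the first probe, and on each of 3 slides TSA(+) was below IVF, by between 0.95 and 1.38. The largest of these, 3.36, set TSA(-) replicate 2 alone against IVF replicate 1 alone.

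TSA-treated clones had a mean Ifng level 0.77 above that of untreated clones with the first probe and 0.79 with the second, but the 2 groups overlapped with both. On the 1 slide that held both groups the difference was 2.09 with the first probe, and over the 3 scan days that held both it ranged from -0.18 to 2.09. That slide held TSA(-) replicate 2 and TSA(+) replicate 1 as the only arrays of their groups. TSA(-) replicate 2 was also the only untreated array of its scan day, so both values of 2.09 rest on it. In order of mean level with probe A_51_P220976, IVF stood first, followed by TSA(+), TSA(-), Spi-C NT 0.1, Spi-C NT 1.0, OC and Cumulus. Each cloned group overlapped its neighbour among the clones in that order. With probe A_52_P68893, Spi-C NT 0.1 (2.67) stood just above TSA(-) (2.64), and OC overlapped Cumulus. The dose of Spi-C mRNA is the 1 comparison in which Ifng could be tested. The higher dose differed from the lower by -0.16 (SE 0.32, 95% confidence interval -0.82 to 0.50) with the first probe and by -0.12 (SE 0.32) with the second, both with an adjusted p of 1 in limma, with 4 arrays in each dose group. On the 2 slides, which each held both doses, the difference with the first probe was -0.73 on one and 0.41 on the other.

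Markers of T and NK lymphocytes, the usual source of this cytokine, are given beside Ifng. Of 17 lymphocyte markers, 10 were well above background on all IVF arrays, 9 on all TSA(-) arrays and 4 on all OC arrays. Their summed signal, in units of each array's 75th percentile, reached 3.21 in the median OC array (range 1.51 to 7.95) and 5.99 in the median IVF array (range 4.43 to 7.62), was 5.17 in the median untreated clone array (range 4.22 to 6.01) and 5.51 with trichostatin A (range 4.58 to 5.91), and was 4.02 in Cumulus (range 3.89 to 4.27), with Il2rb the brightest in IVF and OC and Lck in TSA(-), TSA(+) and Cumulus. In the Spi-C NT arrays the median sum was 7.11 at 1.0 mg/ml and 7.86 at 0.1 mg/ml, on arrays of another batch. The markers differed among themselves. Lck, a T cell kinase, was well above background on 0 of 7 OC and 6 of 6 IVF arrays, and averaged -6.75 in OC, 0.58 in IVF, 0.88 in TSA(-) and 1.46 in TSA(+). The perforin gene Prf1 was well above background on 1 of 7 OC and 6 of 6 IVF arrays, with means of -5.51 and -4.63, and the granule gene Nkg7 likewise on 1 and 6, with means of -5.71 and -6.03. Cd3e averaged -2.51 in OC and -2.28 in IVF, and the granzyme gene Gzma was not well above background on any OC, IVF, TSA(-), Spi-C NT or Cumulus array. The NK receptor gene Klrd1 was likewise not well above background on any OC, IVF, TSA(-) or TSA(+) array. In OC replicates 5 and 6, which had the highest Ifng of the oocyte arrays, the lymphocyte sums were 2.40 and 1.51. The part of lymphocyte transcripts in the Ifng values was not tested.

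Markers of the 2-cell embryo had their highest summed signal in IVF, where Ifng was highest, but did not all move together in clones. Their summed signal (7 of 9 listed genes had a probe) had a median of 221 in IVF against 33.6 in OC, of 85.6 in untreated and 91.9 in TSA-treated clones, 58.3 in Spi-C NT 1.0, 53.1 in Spi-C NT 0.1 and 12.8 in Cumulus, with Tcstv1 the brightest in OC and IVF, Tcstv3 in both TSA groups, Zfp352 in both Spi-C NT groups and Eif1a in Cumulus. The part of this broad difference in the Ifng values was not tested. Oocyte markers were present in all embryos, with a median sum of 638 in IVF and 567 in TSA(-), and 4 of the 8 (Zp2, Bmp15, Nlrp5 and Oosp1) were not well above background on any Cumulus array.

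The genes whose profile most resembled that of Ifng over all 39 arrays were found among 20316 probes that carried a gene name and were well above background on every IVF array. With probe A_51_P220976 they were Trabd2b (Pearson's r = 0.987), Zfp352 (r = 0.984), Limch1 (r = 0.981), Cst9 (r = 0.980), the Ppp1r2-ps7 pseudogene (r = 0.980) and Tie1 (r = 0.980). With probe A_52_P68893 they were Trabd2b (r = 0.985), Zfp352 (r = 0.981), Tie1 (r = 0.978), Rpl3l (r = 0.977), Iqcf1 (r = 0.977) and Olfr120 (r = 0.976), so Trabd2b, Zfp352 and Tie1 stood in both lists. Most of each correlation is the gap between embryos on one side and oocytes and cumulus cells on the other, which the arrays of a group share. Trabd2b averaged -7.20 in OC, 1.23 in IVF and -0.14 in TSA(-), and Cst9 averaged -5.85, 4.88 and 2.24 in the same groups. A profile like that of Ifng was fixed by the choice of these genes and is no finding.

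**Figure D2:**
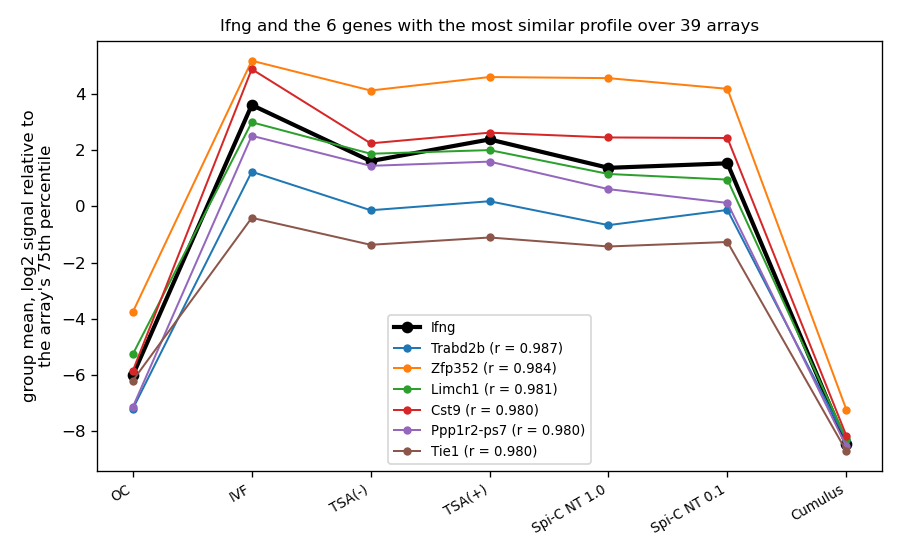
Group means of Ifng (probe A_51_P220976, thick black line) and of the 6 genes most correlated with it over 39 arrays (vertical axis, log2 signal relative to the array's 75th percentile; the 7 groups on the horizontal axis; lines only join the means of 1 gene). The genes were chosen for this likeness, and Ifng runs from a mean of -8.47 in Cumulus to 3.60 in IVF.

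From oocyte to fertilized 2-cell embryo, both receptor chains, Irf1 and Irf8 rose and Socs1 and Jak1 fell relative to the 75th percentile, though the fall of Jak1 was not kept under another normalization. Of the 12 probes of the 7 genes other than Ifng, 11 passed the test, 7 of them higher and 4 lower in IVF. Over all probes tested in this comparison 66% passed, 23.3% higher and 42.7% lower in IVF. The median difference of all probes was -0.88, -0.29 after quantile normalization, -1.55 after centring on the array median and -1.28 after a normexp background correction, so a change near those values is no more than that of the typical probe.

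Ifngr1, the ligand-binding chain, read a lowest level of -7.14, a median of -6.06 and a highest of -4.66 in OC, with 2 of 7 arrays well above background. In IVF it read -0.75, -0.39 and 0.00 for the same 3 values. The groups did not overlap, and the difference was 5.51 (SE 0.30, limma adjusted p = 3.22e-16), or 6.38 relative to the median of all probes. Ifngr2, the signalling chain, was higher in IVF by 2.37 (SE 0.24) with probe A_52_P471395 and by 1.66 (SE 0.36) with probe A_51_P196687, but the second of these was well above background on 1 of 7 OC arrays, turned to -0.66 under the normexp correction and missed the threshold after median centring (0.98, limma adjusted p = 0.0152). Jak1 fell by 1.52 (SE 0.17) and by 1.84 (SE 0.16) with its 2 probes, which is -0.64 and -0.97 relative to all probes, and both differences changed sign to 0.06 and 0.17 after quantile normalization. The probes of Jak2, the other receptor kinase, disagreed, with a difference of -1.35 (SE 0.13) for A_51_P483231 and 2.04 (SE 0.29) for A_52_P309376, and the former turned to 0.92 after quantile normalization.

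Irf1, the transcription factor that amplifies interferon responses, read a lowest level of 0.31, a median of 1.44 and a highest of 1.94 in OC with probe A_51_P146103. In IVF the same values were 4.61, 4.81 and 4.93. The groups lay far apart, with a difference of 3.48 (SE 0.19, limma adjusted p = 6.22e-16), an 11.2-fold rise. The dim second probe of Irf1, A_52_P175685, stayed near -4.7 in both groups, at -4.74 ± 1.27 (SD, n = 7) in OC and -4.67 ± 0.53 (SD, n = 6) in IVF. After the normexp correction its difference was -0.97 and passed (limma adjusted p = 9.21e-07), beside a median of -1.28 for all probes. Irf8, a transcription factor of macrophages and dendritic cells, was higher in IVF by 2.97 (SE 0.67, limma adjusted p = 0.00023) with probe A_52_P354823 and by 1.59 (SE 0.37, limma adjusted p = 0.000404) with A_51_P187253. OC replicate 1 read -7.43 with the former, far below the other OC arrays, whose median was -1.34, and without that array the difference was 2.14. The difference of A_51_P187253 missed the threshold after quantile normalization (0.93, limma adjusted p = 0.0258), after median centring (0.91, limma adjusted p = 0.0234) and after the normexp correction (0.17, limma adjusted p = 0.484). Socs1, the inhibitor of the kinases, was between 5.42 and 6.17 in OC and between 3.18 and 3.64 in IVF, and fell by 2.32 (SE 0.16, limma adjusted p = 1.01e-13), or by 1.44 relative to all probes.

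**Figure D3:**
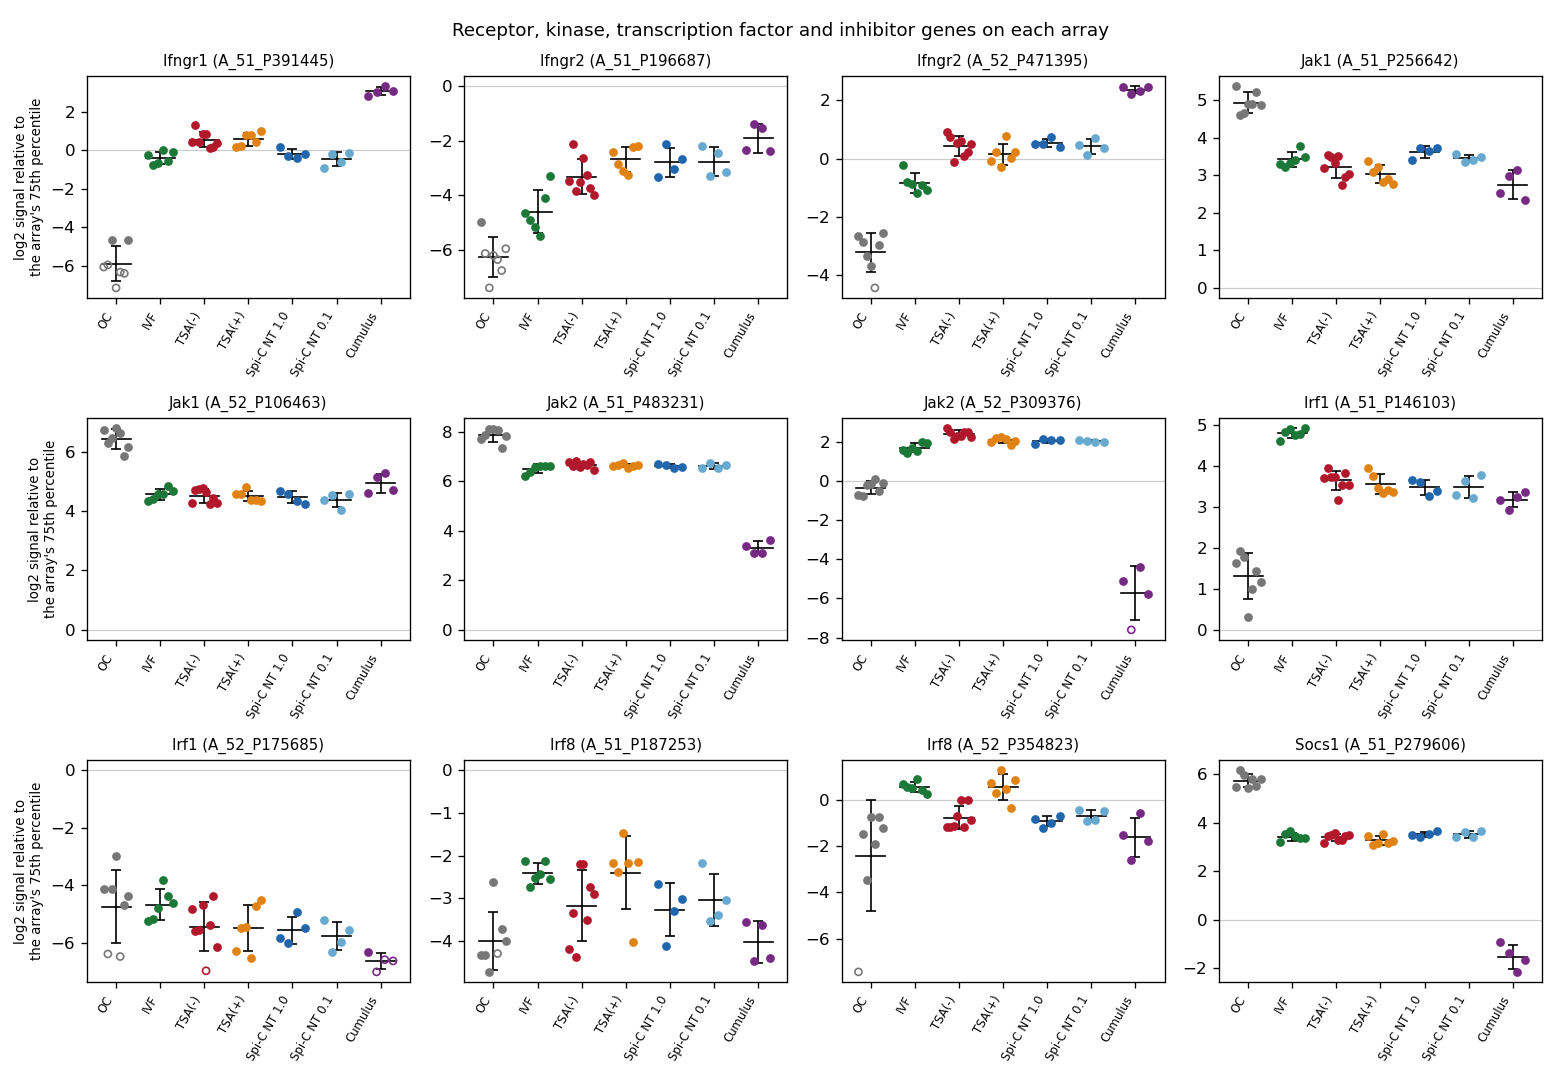
Signal of the 7 other genes on each of 39 arrays, 1 panel per probe (vertical axis, log2 signal relative to the array's 75th percentile, with its own range in each panel; groups on the horizontal axis). Filled points were well above background and open points were not; black lines are group means and SD. Ifngr1 climbs from OC (mean -5.88) to the embryos and is highest in Cumulus (3.09), whereas Socs1 is highest in OC (5.74) and lowest in Cumulus (-1.54).

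Against fertilized embryos, untreated clones had more Ifngr2 and less Irf1, and so had TSA-treated and Spi-C NT clones, in comparisons that share the IVF arrays. In TSA(-), 3 of the 12 probes passed the test, 2 higher and 1 lower, where 18.8% of all probes passed, 8.49% higher and 10.3% lower. In TSA(+) 3 of 12 passed, 2 higher and 1 lower, against 18.9% of all probes, 7.83% higher and 11.1% lower. In Spi-C NT 5 of 12 passed, 3 higher and 2 lower, against 36.2% of all probes, 18.8% higher and 17.4% lower. The Spi-C NT count came from another fit, without the OC and Cumulus arrays, so it cannot be ranked against the TSA counts. In a fit of TSA(-) and IVF alone 5 of the 12 passed.

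With its brighter probe, Irf1 was lower in every cloned array than in every fertilized one. With probe A_51_P146103, the TSA(-) arrays had a lowest level of 3.17, a median of 3.72 and a highest of 3.96. The TSA(+) arrays ran from 3.35 through 3.45 to 3.97. The Spi-C NT 1.0 arrays read 3.66, 3.62, 3.27 and 3.40 and the 0.1 arrays 3.30, 3.64, 3.23 and 3.77. The lowest IVF array stood above all of these, at 4.61. The fall from IVF was 1.15 (SE 0.19, limma adjusted p = 2.13e-05) in TSA(-), and the difference was -1.25 (SE 0.20, limma adjusted p = 1.87e-05) in TSA(+) and -1.32 (SE 0.13, limma adjusted p = 2.23e-09) in Spi-C NT. Within the 3 slides that held both groups, TSA(-) was lower than IVF by between 0.65 and 1.49, and TSA(+) was lower in all 3 of its slides by between 0.64 and 1.5. The dim probe A_52_P175685 had differences of -0.77, -0.82 and -0.99 that did not pass (limma adjusted p = 0.232, 0.218 and 0.0253), and each clone group overlapped IVF. In Spi-C NT its difference passed after quantile normalization (-1.17, limma adjusted p = 0.00599), after normexp (-0.82, 8.62e-06) and with the 2 groups alone (0.00549). Cumulus cells, the source of the cloned nuclei, read 3.18, 2.93, 3.26 and 3.37 for Irf1 with the first probe, which was also below every IVF array.

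Ifngr2 differed in the other direction. With probe A_52_P471395, the IVF arrays ran from -1.18 through a median of -0.89 to -0.21. The TSA(-) arrays ran from -0.10 through 0.52 to 0.91 and did not overlap IVF, with a rise of 1.28 (SE 0.24, limma adjusted p = 0.000112), whereas the TSA(+) arrays ran from -0.29 through 0.12 to 0.79 and overlapped IVF, with a rise of 1.00 (SE 0.25, limma adjusted p = 0.00318). The Spi-C NT 1.0 arrays read 0.51, 0.50, 0.74 and 0.40 and the 0.1 arrays 0.47, 0.12, 0.71 and 0.38, a rise of 1.32 (SE 0.17, limma adjusted p = 4.44e-07). Without TSA(+) replicate 4, the TSA(+) difference missed the threshold (limma adjusted p = 0.0122). The dimmer probe A_51_P196687 gave 1.28 (SE 0.35), 1.92 (SE 0.37) and 1.82 (SE 0.32) in the same order, but the first of these passed less securely, with a limma adjusted p of 0.00586 that rose to 0.0198 after quantile normalization, to 0.0158 after the normexp correction (a difference of 0.62), to 0.0147 with the 2 groups alone and to 0.0102 in the methods' Tukey comparison. Leaving out IVF replicate 1, 2, 3 or 4 gave 0.0117, 0.0151, 0.019 and 0.0231, and leaving out TSA(-) replicate 2 or 5 gave 0.0146 and 0.0139. Within scan days this probe was higher in TSA(-) on 3 of 4 days, with differences from -0.45 to 2.53.

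Ifngr1 was higher by a similar amount in both TSA groups without passing the test. Its arrays lay between 0.10 and 1.32 in TSA(-) and between 0.20 and 0.99 in TSA(+), all above the highest IVF array, at 0.00. The differences were 0.94 (SE 0.29, limma adjusted p = 0.0132) and 0.96 (SE 0.31, limma adjusted p = 0.0186). That fit shares its estimate of the spread with the OC arrays, whose SD was 0.91, beside 0.41 in TSA(-), 0.335 in TSA(+) and 0.32 in IVF. In limma fits of the 2 groups alone both differences passed, with adjusted p of 0.0028 and 0.00254, and they also passed after the normexp correction. Spi-C NT arrays lay between -0.91 and 0.16, and differed from IVF by 0.06 (SE 0.19, 95% confidence interval -0.34 to 0.45).

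Both receptor chains had their highest mean in cumulus cells, on arrays of another batch, where Ifngr1 read 2.85, 3.05, 3.34 and 3.1. With Ifngr2 probe A_51_P196687 the Cumulus arrays (mean -1.92) overlapped TSA(+) (mean -2.69). The markers of cumulus and granulosa cells are therefore given beside these results. Of 12 such markers, all 12 were well above background on every Cumulus array, 6 on every IVF array and 6 on every TSA(-) array. Their summed signal had a median of 308 in Cumulus, 7.36 in IVF, 6.56 in TSA(-), 9.5 in TSA(+), 6.21 in Spi-C NT 1.0 and 7.15 in Spi-C NT 0.1, with Cyp11a1 the brightest in Cumulus and Amhr2 the brightest in every embryo group. Most of the sum in embryos was Amhr2, at a mean level of 2.66 in IVF and 2.59 in TSA(-). Inhba, an inhibin subunit gene, averaged -6.38 in IVF, -4.30 in TSA(-), -5.95 in TSA(+), -3.33 in Spi-C NT 1.0, -4.26 in Spi-C NT 0.1 and 4.63 in Cumulus. From IVF to TSA(-) the mean level was higher for 6 of the 12 markers and lower for the other 6, among them Tnfaip6 (-1.66 and -3.99) and Ptx3 (-5.94 and -7.11). The part of cumulus cell transcripts in the receptor values was not tested.

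Irf8 had a higher mean in TSA-treated than in untreated clones with both probes, but the groups overlapped with both and neither difference passed the test. With probe A_52_P354823, the IVF arrays ran from 0.26 through 0.53 to 0.91. The TSA(-) arrays ran from -1.20 through -0.99 to -0.02, all below IVF, and the TSA(+) arrays from -0.36 through 0.60 to 1.28, around IVF. The Spi-C NT arrays read -0.82, -1.20, -1.01 and -0.68 at the higher dose and -0.46, -0.92, -0.87 and -0.49 at the lower. TSA(-) differed from IVF by -1.34 (SE 0.65, limma adjusted p = 0.13) in the fit of 5 groups, which shares its estimate of the spread with the scattered OC arrays, and by the same -1.34 with an adjusted p of 0.000363 in the limma fit of TSA(-) and IVF alone. Spi-C NT fell by 1.36 (SE 0.22, limma adjusted p = 1.13e-05), and TSA(+) differed from IVF by -0.01 (SE 0.69, 95% confidence interval -1.43 to 1.40). The difference of TSA(+) from TSA(-) was 1.33 (SE 0.65, 95% confidence interval 0.003 to 2.65, limma adjusted p = 0.306), and it was above 0 on each of the 3 scan days that held both groups, from 0.41 to 1.79. With the second probe the difference was below 0 on 1 of the 3 scan days, and ran from -0.66 to 1.17. Against IVF this probe, A_51_P187253, gave -0.77 in TSA(-), 0.01 in TSA(+) and -0.74 in Spi-C NT, none past the threshold (limma adjusted p = 0.123, 0.983 and 0.0911).

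Macrophage markers are given beside Irf8, and did not all move together. The summed signal of 9 markers with a probe (of 10) had a median of 1.39 in IVF (range 1.09 to 1.56), of 0.571 without trichostatin A (range 0.423 to 0.927) and of 0.910 with it (range 0.559 to 1.36), and of 1.08 and 0.796 in Spi-C NT 1.0 and 0.1. Lyz2 was the brightest in each, with mean levels of -0.23, -1.46, -0.67, -0.26 and -1.04. The integrin gene Itgam averaged -3.55 in IVF, -7.43 in TSA(-), -4.63 in TSA(+), -7.26 in Spi-C NT 1.0 and -6.81 in Spi-C NT 0.1, and was well above background on all IVF and all TSA(+) arrays but on 3 of 8 TSA(-) arrays. From TSA(-) to TSA(+) the mean level was higher for 5 of the 9 markers and lower for 4, Adgre1 (-7.08 and -8.93), Ptprc (-7.66 and -8.41), Csf1r (-5.53 and -6.23) and Mpeg1 (-5.07 and -5.44). The Fc receptor gene Fcgr1 averaged -2.08 in IVF, -6.67 in TSA(-) and -6.45 in TSA(+). The defining marker Adgre1 was not well above background on any IVF or TSA(+) array, and Tyrobp on none of IVF or Spi-C NT 1.0. The sum was 71.0 in Cumulus, where Adgre1 and Tyrobp were well above background on all 4 arrays, and the part of such transcripts in the Irf8 values was not tested.

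Socs1 and Jak1 had no difference past the threshold between fertilized and cloned embryos. Of the 2 Jak2 probes 1 had one, in Spi-C NT, though its difference was larger in TSA(-). Socs1 lay between 3.08 and 3.65 on all 28 arrays of 2-cell embryos. Its differences from IVF were -0.02 (95% confidence interval -0.33 to 0.30) in TSA(-), -0.15 (-0.49 to 0.19) in TSA(+) and 0.10 (-0.10 to 0.30) in Spi-C NT. None of the Jak1 differences passed, and the intervals of its 2 probes together spanned -0.75 to 0.39. The brighter Jak2 probe, A_51_P483231, differed from IVF by 0.16, 0.13 and 0.11 in the 3 clone groups, none past the threshold. After quantile normalization its difference in Spi-C NT was 0.64 and passed (limma adjusted p = 3.45e-07). The other Jak2 probe was higher by 0.71 (SE 0.28, limma adjusted p = 0.0602) in TSA(-), where its groups did not overlap. That fit shares its estimate of the spread with the Cumulus arrays, whose SD was 1.39, beside 0.18 in TSA(-) and 0.23 in IVF. The Spi-C NT fit leaves the Cumulus arrays out. The TSA(-) difference was 0.85 to 0.96 on the 3 slides that held both groups. It passed with the 2 groups alone (limma adjusted p = 0.000921), after the normexp correction (0.000126) and with scan day as a block (0.000752). In Spi-C NT this probe was higher by 0.35 (SE 0.10, limma adjusted p = 0.00703), which missed the threshold after median centring (0.20, limma adjusted p = 0.14), with the 2 groups alone (0.0156), with slide as a random block (0.0103) and without any 1 of IVF replicates 1 to 4, Spi-C NT 1.0 replicates 2 to 4 or Spi-C NT 0.1 replicates 1 and 2 (0.0105 to 0.0252).

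**Figure D4:**
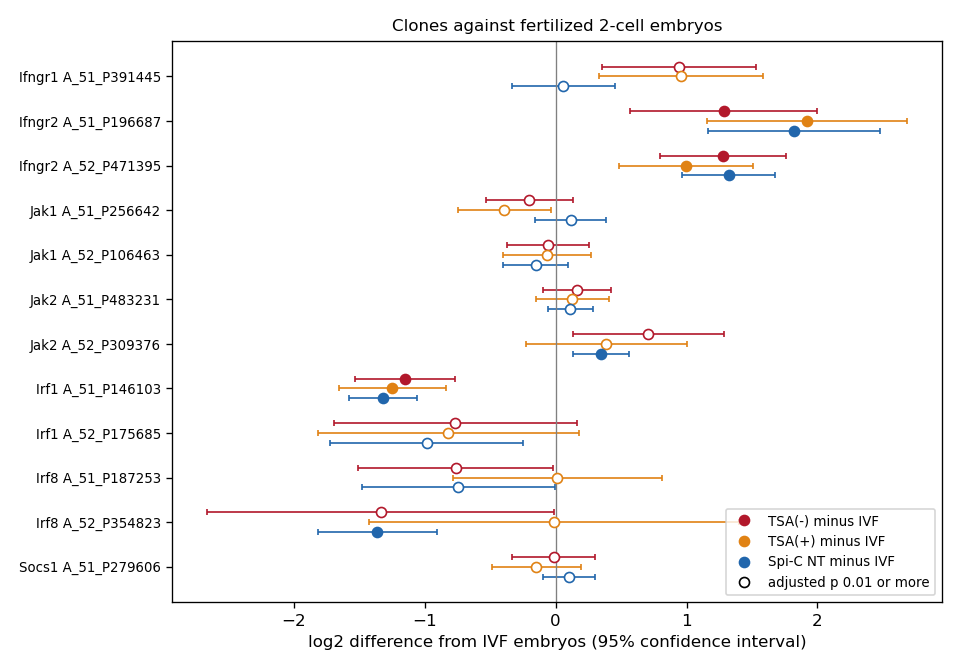
Log2 difference from IVF embryos of the 12 probes of the 7 genes other than Ifng (horizontal axis), for TSA(-), TSA(+) and Spi-C NT clones (colours). Bars are 95% confidence intervals and filled points had an adjusted p under 0.01 in limma. Irf1 probe A_51_P146103 lies left of 0 and both Ifngr2 probes right of 0 in all 3 comparisons, which share the IVF arrays.

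Between clones, few of these probes differed. TSA treatment moved 0 of the 12 past the threshold in limma, where 0.137% of all probes passed (0.043% higher and 0.0936% lower). At an unadjusted p under 0.05, 2 of the 12 passed, both Irf8, against 6435 of 39517 probes. The 95% confidence intervals of the 12 differences lay between -0.98 and 2.65. The methods' one-way test with Tukey's comparison also called 0 of the 12. Between the 2 doses of Spi-C mRNA 0 of 12 passed (0.00506% of all probes, every one of them higher), 0 of 12 at an unadjusted p under 0.05, and the Tukey comparison called 0 too. The intervals lay between -1.21 and 1.19.

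Against untreated clones, Spi-C NT clones had 2 of 12 probes past the threshold, both lower, where 20.9% of all probes passed, 11.7% higher and 9.24% lower. Ifngr1 fell by 0.89 (SE 0.18, limma adjusted p = 0.000366), with the Spi-C NT 0.1 arrays at -0.91, -0.17, -0.62 and -0.14 and the Spi-C NT 1.0 arrays at 0.16, -0.30, -0.39 and -0.20. All but 1 of these 8 lay below the lowest TSA(-) array, at 0.10. Jak2 probe A_52_P309376 fell by 0.36 (SE 0.10, limma adjusted p = 0.00496), and its groups overlapped. Without TSA(-) replicate 1, 6 or 7 or Spi-C NT 1.0 replicate 1 this Jak2 difference missed the threshold (limma adjusted p = 0.0131, 0.0108, 0.0106 and 0.0112), as it did after quantile normalization (0.0108). Ifng differed by -0.16 with its first probe and -0.04 with its second in this comparison, and its groups overlapped. Slide, scan day, scanner and software all changed with the groups here.

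Cumulus cells, on arrays of another batch, held the opposite balance from oocytes, with the receptor abundant and the inhibitor scarce. Of the 12 probes, 10 passed against OC, 4 higher and 6 lower, where 67.8% of all probes passed (23.4% higher, 44.4% lower). Against IVF 10 of 12 passed, 3 higher and 7 lower, where 55.2% passed (23.9% higher, 31.3% lower). The median of all probes was shifted by -1.15 against OC and by -0.14 against IVF. Ifngr1 was higher than in OC by 8.97 (SE 0.33) and higher than in IVF by 3.47 (SE 0.34, limma adjusted p = 3.42e-10), and Ifngr2 with probe A_52_P471395 was higher than in IVF by 3.21 (SE 0.28). Socs1 read -0.93, -1.39, -2.15 and -1.68 in Cumulus, a difference of -7.27 from OC (SE 0.18, limma adjusted p = 9.56e-25) and of -4.95 from IVF (SE 0.19). Jak2 fell with both probes, with differences of -4.54 and -5.39 from OC. Jak1 had a smaller difference from OC, -2.19 (SE 0.19) and -1.48 (SE 0.18), and the second of these turned to 0.46 after quantile normalization. Irf1 with probe A_51_P146103 stood between the oocytes and the fertilized embryos, with differences of 1.86 from OC and -1.62 from IVF (limma adjusted p = 6.88e-09 and 2.01e-07). The dim Irf1 probe, A_52_P175685, was below both, with differences of -1.90 from OC and -1.96 from IVF (limma adjusted p = 0.00201 and 0.00235). It was well above background on 1 of 4 Cumulus arrays, and neither call was secure. Against OC it missed the threshold after quantile normalization (-1.154, limma adjusted p = 0.142) and with the 2 groups alone (0.0108). Against IVF it missed it after quantile normalization (-0.914, limma adjusted p = 0.269), median centring (-1.065, 0.0793) and normexp (-0.229, 0.263). The Tukey comparison called neither (adjusted p = 0.0137 and 0.0134).

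Wider lists of pathway genes, 1 probe per gene, are described by their counts, each read against the share of all probes that passed in the same comparison. Some folds below are given as at least. They take for each dim array the higher of the probe's own signal and the lowest signal among probes well above background. That level lay close to the measured one, at -6.99 for both in the case of Cish in OC. These folds therefore hold only for the scale and background treatment used here. For Ifng probe A_52_P68893, the Cumulus difference from IVF of -12.88 was -8.42 after the normexp correction. The signal transducers and brakes of the pathway (21 genes, Stat proteins, phosphatases, Pias and Socs genes) had 9 higher and 8 lower in IVF than in OC, where 23.3% of all probes were higher and 42.7% lower, with a median difference of -0.61 beside -0.88 for all probes. Usp18 and Cish, a protease and a Socs family gene that limit cytokine signals, were not well above background on any OC array and were at least 9.72-fold and 18.4-fold higher in IVF. Crebbp rose by 3.66 and Ptpn1 by 2.77 (limma adjusted p = 6.2e-13 and 8.25e-08). In TSA(-) against IVF this list had 4 higher and 6 lower, where 8.49% and 10.3% of all probes were, with a median of -0.15 beside -0.05. Stat5b was higher by 3.60 (SE 0.86, 4 of 6 IVF arrays well above background), Usp18 by 1.78 and Cish by 1.40, and the phosphatase gene Ptpn6 fell by 1.99. In TSA(+), where 18.9% of all probes passed, 3 rose and 3 fell, led by Ptpn6 at -2.13, Cish at 1.87, Stat2 at 1.11 and Pias1 at -1.0. In Spi-C NT, where 36.2% of all probes passed, 3 were higher and 6 lower, with Stat5b at 2.34, Ptpn6 at -2.0, Usp18 at 1.67 and Socs3 at -1.19. In Cumulus against IVF 7 were higher and 9 lower, where 55.2% of all probes passed.

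Target genes of interferon gamma were called in both directions in clones. Of 34 with a probe (36 listed), 6 were higher and 4 lower in TSA(-) than in IVF, where 8.49% of all probes were higher and 10.3% lower, with a median of 0.20 beside -0.05 for all probes. H2-Aa, an MHC class II chain, rose by 3.75 (SE 0.23, limma adjusted p = 5.9e-13) and the chemokine gene Cxcl10 by 2.13 (SE 0.49, limma adjusted p = 0.0014). The GTPase genes Gbp3 and Irgm1 fell by 4.10 and 3.33, with 5 of 6 and 6 of 6 IVF arrays but 1 of 8 and 4 of 8 TSA(-) arrays well above background. In TSA(+) 6 were higher and 3 lower (18.9% of all probes passed), led by Irgm1 at -3.60 (3 of 6 TSA(+) arrays well above background), H2-Aa at 3.50, Cxcl10 at 2.27 and Gbp7 at -2.17. In Spi-C NT 9 were higher and 4 lower (36.2% of all probes passed), led by Irgm1 at -3.93 (2 of 8 arrays), H2-Aa at 3.73, Igtp at 1.93 and Cd74, the class II invariant chain, at -1.93. From OC to IVF 15 rose and 10 fell, where 66% of all probes passed. The chemokine gene Cxcl10 was at least 178-fold higher in IVF than in OC, where it was not well above background on any array, H2-Aa fell by 6.26, and Psmb10 and Igtp rose by 5.80 and 5.22. In Cumulus against IVF 20 were higher and 6 lower (23.9% and 31.3% of all probes), with a median of 2.76 beside -0.14, led by Gbp2 at 7.12 and Psme1 at 5.80, while Ciita was at least 52.4-fold lower and Cxcl9 differed by -4.67.

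Among the other Jak, Irf and Socs genes (15), 2 were higher and 3 lower in TSA(-) than in IVF, where 18.8% of all probes passed, with a median of -0.10 beside -0.05. Irf4, a lymphocyte transcription factor, averaged -2.64 in IVF, where all 6 arrays were well above background, and -8.87 in TSA(-), where 1 of 8 was, a difference of -6.23 (SE 0.80, limma adjusted p = 8.69e-07). Irf2, which competes with Irf1 for its sites, was not well above background on any IVF array and was at least 6.74-fold higher in TSA(-), with 6 of 8 arrays well above background. Tyk2, the kinase of the type I receptor, rose by 1.47, and Socs3 fell by 1.12. In TSA(+) 3 were higher and 2 lower (18.9% of all probes passed), led by Irf4 at -6.19 (1 of 6 TSA(+) arrays well above background), Irf2 at least 4.61-fold higher, Jak3 at 1.57 and Tyk2 at 1.27, and in Spi-C NT 4 were higher and 5 lower (36.2%), led by Irf4 at least 54.1-fold lower and Irf2 at least 4.47-fold higher. Against OC, IVF had 8 higher and 5 lower (66% of all probes passed), with Irf9, a transcription factor of the type I interferon response, higher by 7.10, Socs7 by 4.31, Socs2 by 4.25 and Irf4 by 3.61.

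Type I interferon genes (21 with a probe of 23 listed) were 3 higher and 3 lower in TSA(-) than in IVF. Over all probes 18.8% passed, 8.49% higher and 10.3% lower. The median of the list was -0.26 beside -0.05 for all probes. Ifit3 fell by 4.75 (SE 0.58, limma adjusted p = 3.23e-07), with 1 of 8 TSA(-) arrays well above background. The receptor chain gene Ifnar2 rose by 2.53 and the antiviral gene Oas1a fell by 1.94. In TSA(+) 4 were higher and 1 lower (18.9% of all probes passed), with Ifit3 at least 42.1-fold lower and Ifnar2 higher by 2.77, and in Spi-C NT 4 were higher and 4 lower (36.2%), with Ifit3 at -3.60 (2 of 8 arrays well above background) and Oas1a at -2.15 (1 of 8).

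Genes that drive Ifng in lymphocytes were called in both directions from OC to IVF. Of 11, 4 were higher and 4 lower in IVF than in OC, where 23.3% of all probes were higher and 42.7% lower, with a median of 0.35 beside -0.88. Eomes, a T-box factor of NK and memory T cells, was at least 98.9-fold higher in IVF, and Stat4, the mediator of interleukin 12, rose by 6.61, while Tbx21, the T-box factor of Th1 cells, fell by 1.06. Eomes averaged 0.80 in IVF and -6.79 in TSA(-), where 3 of 8 arrays were well above background, a fall of 7.59 (SE 0.70, limma adjusted p = 1.98e-09). It also fell in TSA(+), with a difference of -7.66 and 3 of 6 arrays well above background, and in Spi-C NT, with -8.11 and 1 of 8 arrays. Differences against arrays near background are measured values whose size is uncertain. Tbx21 was higher in TSA(-) than in IVF by 1.09, and no other of the 11 besides Eomes passed in TSA(-) (18.8% of all probes did), while Eomes was the 1 that passed in TSA(+) (18.9%) and in Spi-C NT (36.2%).

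Of 21 other cytokine genes tested (26 listed), 2 were higher and 1 lower in TSA(-) than in IVF, where 18.8% of all probes passed, and 5 were higher and 3 lower in Spi-C NT, where 36.2% did, so both counts were near the share of all probes. Those in TSA(-) were Il18 at 2.27, Tgfb1 at 1.47 and Il2 at -1.14. Il18, whose product stimulates Ifng in lymphocytes, was also higher in TSA(+) by 2.67 and in Spi-C NT by 2.45, and Tgfb1 by 2.01 and 1.72. Relative to OC, IVF had 2 higher and 9 lower (23.3% and 42.7% of all probes), and the 2 were the lymphotoxin genes, Lta, higher by 6.79 (SE 0.31, limma adjusted p = 6.73e-18), and Ltb, at least 38.4-fold higher. Against TSA(-), Spi-C NT had 5 cytokine genes higher and 1 lower, where 20.9% of all probes passed. The higher ones were led by Il12a at 1.45, Il27 at 1.2 and Il13 at 1.02, and the other two were Il2 and Il10. The colony stimulating factor gene Csf3, the lower one, was not well above background on any Spi-C NT array and was at least 20.3-fold lower there than in TSA(-).

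**Figure D5:**
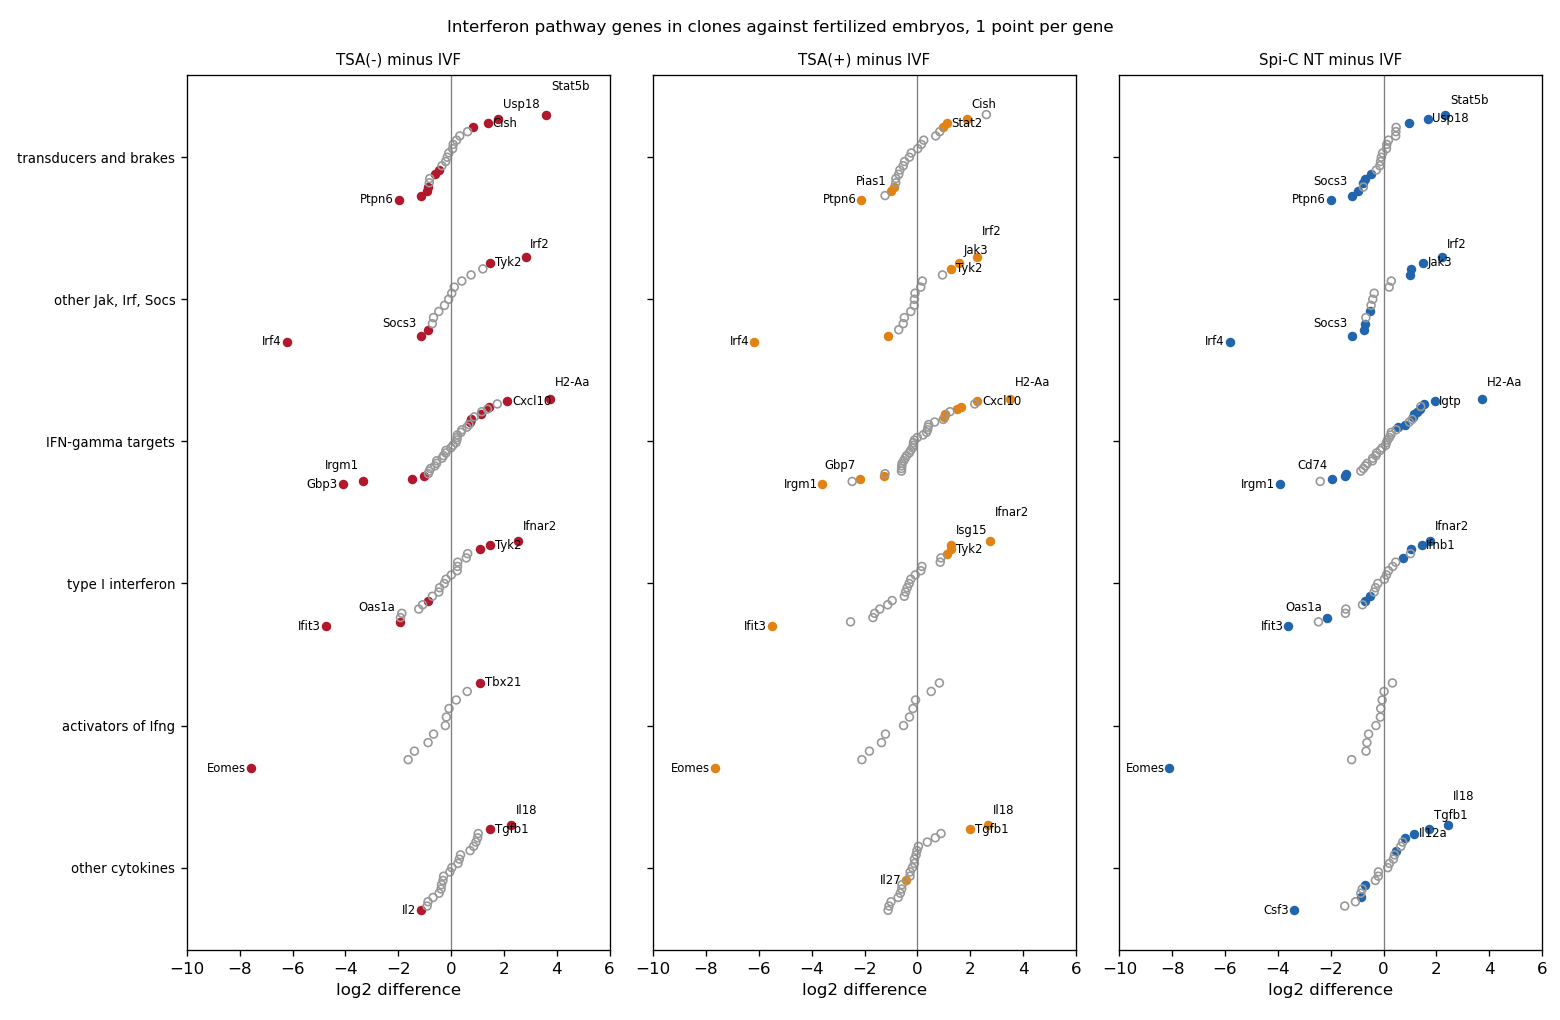
Log2 difference from IVF embryos (horizontal axis) of each tested gene of 6 fixed lists (rows), in TSA(-), TSA(+) and Spi-C NT clones (panels). Filled points had an adjusted p under 0.01 in limma, open points did not, and the 4 largest of the former are named in each row. Eomes lies farthest left in each panel (-7.59, -7.66 and -8.11) and H2-Aa farthest right (3.75, 3.50 and 3.73).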

How the data were processed

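Total RNA was amplified in 2 rounds, labelled with Cy3 and hybridised to one-colour Agilent arrays. The deposited intensity values (gProcessedSignal) were background-subtracted by the authors' Agilent Feature Extraction software, version 9.5.3.1 or, per the file headers of the Cumulus and Spi-C NT arrays, 10.5.1.1. The authors' deposited log2 table matched each probe's level minus its median over arrays (95.3% of values within 0.05) and served as an alternative.

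Here, control and outlier spots were left out, spots of a probe were averaged, and log2 intensity minus each array's 75th percentile was taken. Probes with an intensity of at least 10 on 1 or more IVF or cloned arrays (39517) were fitted with limma 3.58.1 in R 4.3.3, with Benjamini-Hochberg adjustment. One fit held OC, IVF, TSA(-), TSA(+) and Cumulus, another IVF, TSA(-), TSA(+) and pooled Spi-C NT, and another the 2 doses. The script was tested on simulated data. Probes were named through RefSeq accessions (27861 of 41174). All 14 probes of the 8 genes passed the filter. Named list genes were up to 4 with the largest difference past the threshold in each list and comparison, and Tbx21 in IVF against OC was added after its values were seen. Genes like Ifng were the 6 with the highest correlation. The genes and lists were chosen with earlier results of these data known. Alternatives covered normalization, background, filter, test, threshold, slide, scan day, replicate number and each array left out. Arrays give no counts, and their number limits the precision.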

Additional observations from a re-analysis of the deposited data

Results flagged for a closer look

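Among 98 sets of arrays examined for a single array far from the rest (each probe in each group of 4 to 10 arrays), 2 had one, where chance alone gives about 1 in 20. Both were Irf8. With probe A_51_P187253, TSA(+) replicate 5 read -4.02, while the nearest other TSA(+) array read -2.38 and the median of the others was -2.16. With probe A_52_P354823, OC replicate 1 read -7.43, while the nearest other OC array read -3.45 and the median of the others was -1.34.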

How the results depend on the processing

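Of 226 recounts of the probes that passed in a comparison, 218 stayed within 1.5 times the reported count. In TSA(-) against IVF, 5 probes passed after the normexp correction and 5 with the 2 groups alone, in place of 3. In Spi-C NT against TSA(-), 0 passed at a minimum of 2-fold in place of 2, and between 1 and 2 with 1 array left out. With the replicate number as a block 1 passed in that comparison, and 11 in IVF against OC. Jak2 probe A_52_P309376 was the call lost against TSA(-) (limma adjusted p = 0.0473), and its call against IVF was lost too (0.0179). Same-numbered arrays did not deviate together (0 pairs correlated over 0.1), so the numbers only name the arrays.

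Directions turned for Jak1 in IVF against OC after quantile normalization (0.063 and 0.17), for Jak2 probe A_51_P483231 there (0.92), and for Ifngr2 probe A_51_P196687 (-0.663) and Irf1 probe A_52_P175685 (-0.973) after normexp. They turned for Jak1 against Cumulus, to 0.461 over OC after quantile normalization and 0.219 over IVF after median centring, and for Jak2 probe A_51_P483231 in Spi-C NT against TSA(-) after quantile normalization (0.324). Ifng probe A_52_P68893, at -0.04 in that comparison, gave 0.019 after quantile normalization, 0.014 after normexp and between -0.198 and 0.079 with 1 array left out, above 0 without TSA(-) replicate 6 or 7, Spi-C NT 1.0 replicate 3 or Spi-C NT 0.1 replicate 2. The cause was not tested. The fall of Irf1 probe A_51_P146103 in clones passed under all alternatives run. Scan day as a fixed block could not be fitted for Cumulus and Spi-C NT, which were scanned apart. Probes not well above background limit the folds in OC and Cumulus, for Il1b and Irf2 in IVF, and for Eomes, Irf4, Irgm1, Gbp3, Ifit3, Oas1a and Csf3 in clones.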

Other observations

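With both directions counted together, type I interferon and cytokine genes passed the test between Cumulus and IVF about as often as all probes did (55.2%). Nearly all calls among the type I genes were higher in Cumulus. Of 21 type I interferon genes tested, 10 were higher and 1 lower in Cumulus than in IVF, where 23.9% of all probes were higher and 31.3% lower, with a median difference of 2.30 beside -0.14 for all probes. The antiviral gene Rsad2 was higher by 8.28, the receptor chain gene Ifnar2 by 8.09, Oas2 by 5.27 and Oasl2 by 4.63. Of 21 cytokine genes, 6 were higher and 7 lower. Il1b, an inflammatory cytokine of macrophages, was not well above background on any IVF array. It was at least 2060-fold higher in Cumulus, a fold that holds only for the scale and background treatment used here. Il6 was higher by 7.69 and Il1a by 6.97. Macrophage markers had a median summed signal of 71.0 in Cumulus and 1.39 in IVF, led by Lyz2 in both, and their part in these values was not tested. Array batch and group cannot be told apart here.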
